A study of Homo sapiens with 6 samples.

Results

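The 59 genes described here act in S phase, the part of the cell cycle in which DNA is copied, or belong to the E2F factors that control their transcription. They were chosen by name, from the machinery that recognises origins to the enzymes that supply deoxynucleotides, and make up 59 of the 35612 genes to which the deposited transcripts could be joined. All 59 had enough counts to be tested, among 15227 genes tested in all. The samples were bulk RNA from Rh30, an alveolar rhabdomyosarcoma cell line positive for the PAX3-FOXO1 gene fusion. A control group of 3 libraries was set against 3 libraries of cells with a knockdown of DDX5, a DEAD-box RNA helicase, labelled siDDX5. All 6 libraries came from this one line, and the labels do not say what the control cells received, how long after the knockdown the cells were harvested, or in which phase of the cycle they were.

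A eukaryotic cell marks its replication origins with the origin recognition complex (ORC), which together with CDC6 and CDT1 loads the MCM2 to MCM7 ring onto DNA in G1. At the start of S phase, CDC45 and the GINS complex join the ring to form the active helicase. Polymerases, the sliding clamp PCNA and the ligase LIG1 then copy and seal the DNA, and many of the genes involved are transcribed under E2F factors at the G1/S boundary.

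Sequences upstream of the members were examined first, because E2F binding words are the best known shared feature of such promoters. RefSeq promoters of GRCh38.p14, spanning 250 bases before to 50 bases after the start of the gene, were matched by symbol for 51 of the 59 members. Both strands were searched for the E2F words TTTCCCGC, TTTCGCGC, TTTGCCGC and TTTGGCGC, and words on opposite strands may overlap one another. At least 1 E2F word was found in 24 of 51 member promoters (47.1%), against 4.96% of 10998 promoters of genes tested and 3.27% of all 27305 promoters of this length. The word CCAAT, bound by NF-Y, occurred in 58.8% of member promoters and in 36.3% of the promoters of genes tested. TTTGAA, a core of the cell cycle homology region (CHR), occurred in 3.92% and 10.3%. The median GC content was 65.7% in the member promoters and 64.7% in those of genes tested. These matches describe letters in a window and were not taken as binding sites.

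The E2F words of MCM3, GINS1, LIG1, POLA1 and E2F2 are shown because these are the 5 genes with such a word among the 12 members with the smallest p in the fit with the replicate block described further on. For 8 of those 12 a promoter was matched. Each window holds 30 bases on the strand of the gene, 5′ to 3′, with the word in capitals, and a position counts from 0 at the RefSeq start of the gene. That start is 52284742 for MCM3, 25407673 for GINS1, 48170344 for LIG1, 24693918 for POLA1 and 23531233 for E2F2. The GENCODE gene coordinates given further on span all annotated transcripts, so the RefSeq starts of MCM3 and LIG1, and the words printed for them, lie inside these spans, except the MCM3 word at -174. The RefSeq starts of GINS1, POLA1 and E2F2, and the words printed for them, lie upstream of their spans.

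MCM3 upstream word at position -174, chr6:52284898-52284927, minus strand: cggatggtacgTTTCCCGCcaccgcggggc

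MCM3 word at position -4, chr6:52284728-52284757, minus strand: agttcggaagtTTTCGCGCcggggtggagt

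GINS1 word at position 5, chr20:25407667-25407696, plus strand, read on the opposite strand: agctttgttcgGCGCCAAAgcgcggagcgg

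LIG1 word at position -114, chr19:48170440-48170469, minus strand: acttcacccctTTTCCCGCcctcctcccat

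POLA1 word at position -137, chrX:24693770-24693799, plus strand, read on the opposite strand: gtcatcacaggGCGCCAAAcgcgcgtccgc

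E2F2 word at position -42, chr1:23531257-23531286, minus strand: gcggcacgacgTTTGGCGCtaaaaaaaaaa

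The 24 members with an E2F word had a median log2 fold change of -0.14 between siDDX5 and control cells, and 21 of them were below 0. The 27 members without one had a median of -0.07, with 17 below 0. The 8 members without a matched promoter, among them E2F8 and MCM5, are in neither group, and the difference was not tested. The genes shown above include 4 with a lower value and GINS1 with a higher value in siDDX5 cells.

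DDX5 itself measured 1351, 1434 and 1137 CPM in the control libraries, where CPM is a count scaled for library size with TMM factors. The siDDX5 values were 549.4, 504.5 and 395.9 CPM. Its level was lower in every siDDX5 library (log2 fold change -1.44, SE 0.15, edgeR adjusted p 0.0106). The libraries held 18202402 to 26156858 estimated counts, and each siDDX5 library was shallower than each control library. Departures from the group means correlated weakly within same-numbered pairs 1 and 2 (0.19 and 0.25) and more in pair 3 (0.54). Values with the replicate number as a block are therefore given beside those without it. Of the 8 muscle and rhabdomyosarcoma markers examined, all were detected and summed to 981 to 1349 TPM (a transcript level scaled for transcript length). The 10 epithelial, leukocyte, endothelial and adipocyte markers summed to 8.42 to 11.4 TPM. They summed to 10.4, 11.1 and 11.4 TPM in the control libraries and 9.74, 8.42 and 8.76 TPM in the siDDX5 libraries. PECAM1 made up the largest share, at 3.97 to 6.88 TPM, and PTPRC had 0.714 to 3.43 TPM. CDH1 went against the sum, with 0.477, 0.898 and 0.525 TPM in control and 1.21, 1.06 and 1.14 TPM in siDDX5 libraries (log2 fold change 0.60, edgeR adjusted p 0.42). KRT5 had no count in 5 of 6 libraries and CD3E in 3 of 6. The part of such RNA in the results was not tested.

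The comparison of siDDX5 with control cells asked whether the transcripts of the replication machinery changed with DDX5. Most members lay slightly lower in siDDX5 cells, but single changes were small. Among the 59 members, 43 (72.9%) had a log2 fold change below 0, against 50.3% of all genes tested. The median was -0.10 for the members and -0.0016 for all genes tested, and the members ran from -0.68 (E2F8) to 0.55 (GINS1). A change of at least 1.5-fold was reached by 1 member, E2F8, and by 5.02% of all genes tested. In bulk RNA, fewer cells in S phase and less RNA per cell cannot be told apart.

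No member passed an adjusted p of 0.05 in edgeR's quasi-likelihood test without the block, where 0.164% of all genes tested did (0.0525% higher and 0.112% lower). Before adjustment, p was under 0.05 for 12 lower members (20.3%, against 6.0% of all genes) and 3 higher members (5.08%, against 5.37%). With the replicate block, 4 members passed the adjusted threshold (6.78%, against 2.59% of all genes). GINS1 was higher (1.14% of all genes passed in this direction), and MCM3, LIG1 and E2F8 were lower (1.45%). At an unadjusted p under 0.05 the fit with the block held 14 lower members (23.7%, against 10.3% of all genes) and 7 higher members (11.9%, against 10.2%). The DESeq2 Wald test also called 4 members, GINS1, MCM3, E2F8 and POLA1, against 2.12% of all genes. Without both replicate 3 libraries, the fit with the block called only E2F8 (1.69% of the members, against 1.38% of all genes).

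**Figure D1:**
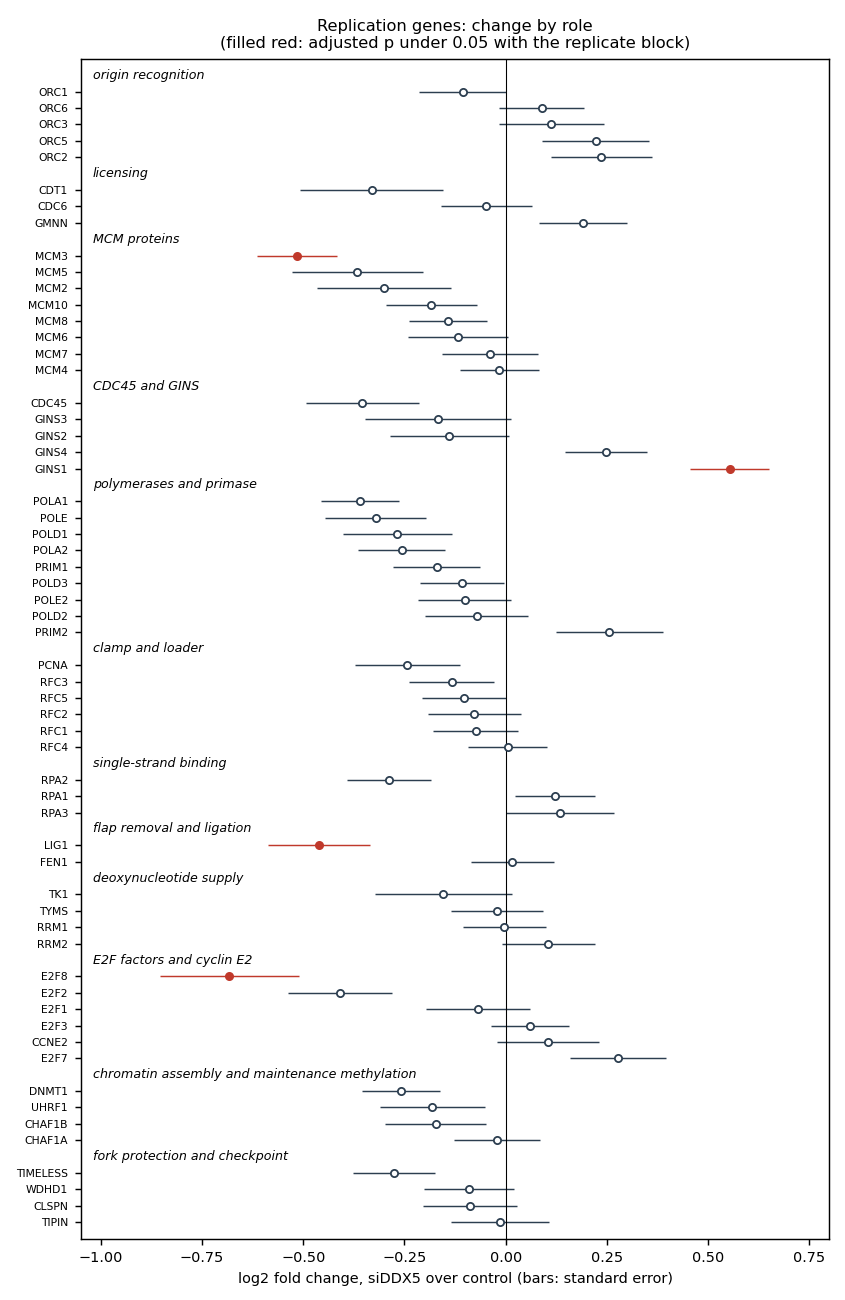
Log2 fold change of each of the 59 members, siDDX5 over control, with its standard error from the edgeR fit without the block, grouped by role. Filled red points mark the 4 members with an adjusted p under 0.05 once the replicate block was added, and most of the other points lie to the left of 0 within 0.4 of it.

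All siDDX5 libraries lay below all control libraries for 13 members (22.0%, against 9.15% of all genes tested). They lay above for 5 members (8.47%, against 8.87%), namely GINS1, GINS4, ORC2, RPA1 and E2F7. In either direction, 18.0% of all genes tested had groups that did not overlap. These counts are from CPM. In TPM the groups overlapped for GINS4, ORC2, RPA1 and E2F7, and for MCM10, POLE2, E2F2 and DNMT1 among the lower members. Within the same-numbered pairs, 25 members were lower in siDDX5 cells in 3 of 3 pairs (42.4%, against 21.1%) and 9 were higher in 3 of 3 (15.3%, against 21.8%). The median difference over the members was -0.15, -0.06 and -0.12 in pairs 1, 2 and 3 on the log2 scale, with 40, 34 and 40 members below 0. Of the 15227 genes tested, 7557, 7594 and 7547 lay below 0 in pairs 1, 2 and 3. The median over the members was thus below 0 in each pair, but this did not hold for every role. Origin recognition had medians of 0.24, 0.19 and 0.02. Licensing, single-strand binding and deoxynucleotide supply had medians of 0.12, 0.19 and 0.15 in pair 2. In pair 3 the medians of single-strand binding and deoxynucleotide supply were also above 0, at 0.17 and 0.04. Fork protection and checkpoint had a median of 0.05 in pair 1. The members' median was nearest 0 in pair 2. Without control replicate 1 or without siDDX5 replicate 3, their median log2 fold change was -0.06.

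**Figure D2:**
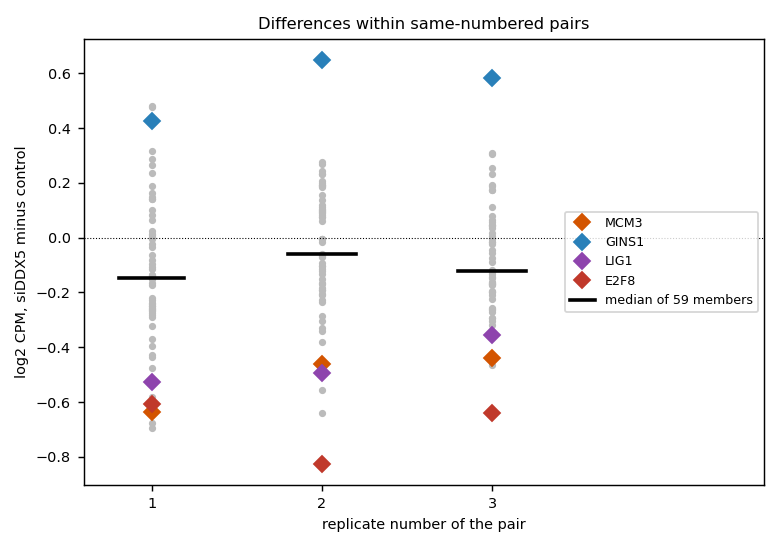
Difference in log2 CPM between the siDDX5 and the control library of each replicate number, one point per member. Black lines are the medians over the 59 members (-0.15, -0.06 and -0.12), and coloured diamonds mark MCM3, LIG1 and E2F8, below 0 in all 3 pairs, and GINS1, above 0 in all 3 pairs.

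Most members of origin recognition lay above 0, as did 2 of the 3 RPA subunits described further on. ORC2, ORC3, ORC5 and ORC6 had log2 fold changes of 0.24, 0.11, 0.22 and 0.09, and ORC1, the subunit whose level is regulated through the cycle, had -0.11. None passed the test (edgeR adjusted p from 0.514 to 0.795, and from 0.21 to 0.594 with the block). ORC2 measured 35.3, 43.9 and 45.1 CPM in control and 49.2, 51.5 and 45.7 CPM in siDDX5 libraries, so the groups were separated only by a small gap. ORC6, the most abundant ORC member per length, had 79.7, 100.8 and 88.5 TPM in control and 100.2, 84.2 and 90.5 TPM in siDDX5 libraries, which overlapped.

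The licensing factors had values of both signs, and none passed. CDT1, which brings the MCM ring to the origin, had 24.4, 19.8 and 19.9 CPM in control libraries and 15.1, 21.4 and 14.4 CPM in siDDX5 libraries. The siDDX5 replicate 2 library lay within the control range, and the log2 fold change of -0.33 did not pass (adjusted p 0.517, 0.245 with the block). CDC6, the loading ATPase, measured 187, 158 and 195 CPM against 168, 169 and 185 CPM, with a log2 fold change of -0.05. Geminin (GMNN), the inhibitor of CDT1, had a log2 fold change of 0.19 and was higher in each of the 3 pairs (adjusted p 0.541, 0.231 with the block).

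Among the MCM proteins, MCM3 stood lowest. MCM3 (ENSG00000112118.18, GRCh38 chromosome 6, 52264009 to 52284881, minus strand) measured 329, 290 and 290 CPM in the control libraries and 211, 210 and 214 CPM in the siDDX5 libraries. Groups did not overlap, and the siDDX5 libraries lay close together. The means were 303 ± 22.4 and 212 ± 1.87 CPM (SD, n = 3 each). MCM3 thus had a log2 fold change of -0.52 with an SE of 0.10 (edgeR adjusted p 0.0781, 0.0232 with the block). MCM3 is the gene shown above with a pair of E2F words, one upstream of and one next to its RefSeq start.

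MCM5 (ENSG00000100297.15, chromosome 22, 35400063 to 35425430, plus strand) and MCM2 had log2 fold changes of -0.37 and -0.30. MCM5 measured 191, 178 and 132 CPM in control and 137, 145 and 107 CPM in siDDX5 libraries. Control replicate 3 lay below siDDX5 replicates 1 and 2, yet the difference was negative within each pair, at -0.47, -0.30 and -0.31. The adjusted p was 0.436, and 0.0615 with the block. For MCM2 the values were 242, 199 and 162 CPM against 169, 186 and 135 CPM (adjusted p 0.531, 0.149 with the block).

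The remaining ring subunits differed less between the groups on the count scale. MCM7, the most abundant member of this role, had 680, 543 and 543 CPM in control and 581, 578 and 561 CPM in siDDX5 libraries, a log2 fold change of -0.04. MCM4 and MCM6 had -0.02 and -0.12, and none of the 3 passed (adjusted p from 0.767 to 0.972). The size for MCM4 depended on the unit. In TPM it measured 204, 236 and 221 in control and 210, 164 and 158 in siDDX5 libraries, which overlapped. Over all settings its log2 fold change ran from -0.33 to 0.03. MCM10, which helps to activate the helicase, and MCM8, a relative that acts in recombination, had -0.18 and -0.14. Their groups did not overlap in CPM, and neither passed. All 8 MCM members lay below 0, and across the alternative settings between 6 and 8 did.

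Transcripts of the ring subunits were not equal in level. Per length, MCM7 was highest in each of the 6 libraries, at 274 to 338 TPM, and MCM2 or MCM6 was lowest, at 57.2 to 86.5 TPM. The highest subunit was 3.82 to 5.06 times the lowest within a library. The TPM ratio of MCM3 to MCM7 was 0.485, 0.517 and 0.56 in control and 0.366, 0.372 and 0.393 in siDDX5 libraries. That of MCM3 to MCM4 was 0.804, 0.648 and 0.724 in control and 0.546, 0.622 and 0.722 in siDDX5 libraries, which overlapped, as did that of MCM5 to MCM4. These and the other ratios given here were chosen after the values were seen and are a description. With 3 libraries per group, the exact permutation test run on them could give no p under 0.1 and is not used.

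**Figure D3:**
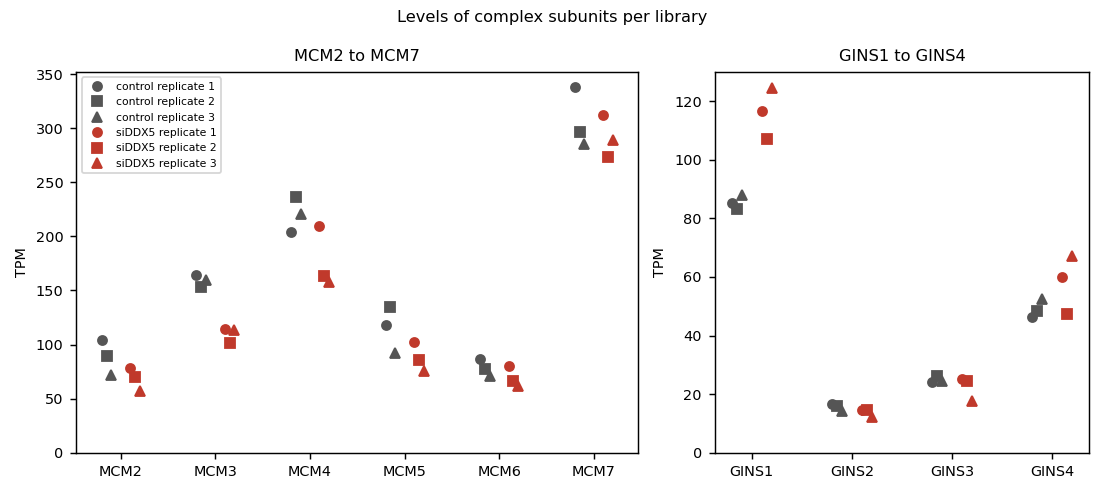
TPM of MCM2 to MCM7 and of GINS1 to GINS4 in each library, with control libraries in grey and siDDX5 libraries in red, and one symbol per replicate number. MCM7 is the highest ring subunit in all 6 libraries, the MCM3 points of the groups are apart, and GINS1 is the highest GINS subunit and higher in the siDDX5 libraries.

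GINS1 (PSF1), a subunit of the GINS complex that bridges the helicase and the leading-strand polymerase, was the member with the largest increase. GINS1 (ENSG00000101003.9, chromosome 20, 25407727 to 25452628, plus strand) measured 126, 122 and 124 CPM in the control libraries and 169.6, 192 and 185 CPM in the siDDX5 libraries. Control values lay within a narrow range and every siDDX5 value was above it. The log2 fold change was 0.55 (SE 0.10), a 1.47-fold higher level, with an adjusted p of 0.068, and 0.0148 with the block. Within pairs the differences were 0.42, 0.65 and 0.58.

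GINS4 (ENSG00000147536.11, chromosome 8, 41529206 to 41545046, plus strand) lay on the same side at a smaller size. It measured 62.6, 60.7 and 64.7 CPM in control and 71.4, 71.8 and 80.2 CPM in siDDX5 libraries, without overlap. In TPM the groups overlapped, at 46.3, 48.5 and 52.4 in control and 59.9, 47.3 and 67.3 in siDDX5 libraries. The log2 fold change was 0.25 (edgeR adjusted p 0.397, 0.138 with the block). GINS2 and GINS3 had -0.14 and -0.17, with overlapping groups. The TPM ratio of GINS1 to GINS2 was 5.12, 5.15 and 6.23 in control and 8.02, 7.34 and 10.3 in siDDX5 libraries. For GINS4 to GINS2 the values were 2.78, 3.01 and 3.71 against 4.13, 3.24 and 5.58, which overlapped.

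CDC45 (ENSG00000093009.9, chromosome 22, 19479459 to 19520612, plus strand), the partner of GINS in the active helicase, lay on the other side. It measured 98.1, 89.7 and 70.4 CPM in control and 74.6, 64.6 and 62.8 CPM in siDDX5 libraries. Control replicate 3 fell within the siDDX5 range, while each pair showed a lower siDDX5 value (-0.40, -0.47 and -0.17). The log2 fold change of -0.35 did not pass (adjusted p 0.379, 0.0799 with the block).

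Of the 9 polymerase and primase genes, 8 lay below 0 and none passed the test. POLA1 (ENSG00000101868.10, chromosome X, 24693919 to 24996986, plus strand), the catalytic subunit of the polymerase that starts each new strand, was the lowest. It measured 212, 209.7 and 221 CPM in control and 177, 161 and 163 CPM in siDDX5 libraries, with no overlap and a narrow spread in each group. Its log2 fold change was -0.36 (SE 0.10, adjusted p 0.208, 0.0636 with the block).

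POLE, the leading-strand polymerase, had a log2 fold change of -0.32, and POLA2, the second subunit of polymerase alpha, had -0.26. Groups did not overlap in CPM for either gene, nor for POLE2 at -0.10. For POLD1, the catalytic subunit of the lagging-strand polymerase, the value was -0.27, but pair 2 went the other way (0.10). POLD2, the most abundant gene of this role per length, measured 179, 161 and 153 CPM against 133, 177 and 160 CPM (log2 fold change -0.07). PRIM1, the catalytic primase subunit, had -0.17, while its partner PRIM2 had 0.26 and was higher in each pair (0.26, 0.27 and 0.23). The annotated span of PRIM1 overlaps that of NACA, an abundant gene on the same strand. The value of PRIM1 may therefore depend on how the authors' quantifier divided reads, and whether exons are shared was not examined. The spans of POLA2, POLD1, RRM2, CHAF1B, FEN1 and DNMT1 also overlap protein-coding genes on the same strand.

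PCNA, the sliding clamp, measured 234, 227 and 189 CPM in control and 187, 204 and 158 CPM in siDDX5 libraries. It was lower in each pair (-0.32, -0.15 and -0.26), with a log2 fold change of -0.24 (adjusted p 0.516, 0.157 with the block). The subunits of its loader stayed near 0, from -0.13 (RFC3) to 0.01 (RFC4), with adjusted p values from 0.673 to 0.994.

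The single-strand binding protein RPA has 3 subunits, and their values differed in sign. RPA2 (ENSG00000117748.9, chromosome 1, 27891524 to 27914746, minus strand) measured 75.0, 85.5 and 75.6 CPM in control and 62.3, 68.1 and 63.1 CPM in siDDX5 libraries, without overlap. Its log2 fold change was -0.29 (SE 0.10, adjusted p 0.336, 0.094 with the block). RPA1 and RPA3 had 0.12 and 0.13. Per length, RPA2 was the highest of the 3 in every control library and RPA3 in every siDDX5 library.

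LIG1 (ENSG00000105486.13, chromosome 19, 48115445 to 48170603, minus strand), the ligase that seals the nicks between Okazaki fragments, was among the 4 members called with the block. It measured 94.9, 75.9 and 77.7 CPM in the control libraries and 65.9, 53.8 and 60.8 CPM in the siDDX5 libraries. Every siDDX5 library lay below every control library. The means were 82.8 ± 10.5 and 60.2 ± 6.05 CPM (SD, n = 3 each). LIG1 thus had a log2 fold change of -0.46 with an SE of 0.13 (edgeR adjusted p 0.222, 0.0259 with the block). FEN1, the nuclease that trims the flaps before LIG1 acts, measured 173, 156 and 168 CPM against 154, 174 and 175 CPM, a log2 fold change of 0.02. The TPM ratio of LIG1 to FEN1 was 0.447, 0.492 and 0.46 in control and 0.366, 0.293 and 0.331 in siDDX5 libraries.

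Genes that supply deoxynucleotides had values close to 0 or of mixed sign. TYMS, which makes thymidylate and was the most abundant member per length, measured 306, 240.1 and 276 CPM in control and 255, 277 and 277 CPM in siDDX5 libraries (log2 fold change -0.02). RRM1 and RRM2, the subunits of ribonucleotide reductase, had -0.003 and 0.11. Over all settings RRM2 ran from -0.14 to 0.18. TK1, the thymidine salvage kinase, measured 123, 77.5 and 90.8 CPM against 77.1, 89.1 and 96.0 CPM. The high value of control replicate 1 set its log2 fold change of -0.15, since pairs 2 and 3 differed by 0.20 and 0.08. The adjusted p values of the 4 genes ran from 0.775 to 0.997.

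The E2F family held the lowest and one of the higher values. E2F8 (ENSG00000129173.12, chromosome 11, 19224063 to 19241620, minus strand), an atypical E2F that represses E2F target genes, measured 35.6, 28.5 and 27.4 CPM in the control libraries. In the siDDX5 libraries it measured 23.4, 16.1 and 17.5 CPM, all below the control range. The means were 30.5 ± 4.43 and 19.0 ± 3.85 CPM (SD, n = 3 each). The log2 fold change was -0.68 (SE 0.17), a 1.60-fold lower level, with an adjusted p of 0.176, and 0.0125 with the block. Pair differences were -0.61, -0.83 and -0.64.

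E2F7 (ENSG00000165891.15, chromosome 12, 77021247 to 77065580, minus strand), the other atypical repressor, had values in the opposite direction on the count scale. It measured 74.5, 89.5 and 93.7 CPM in control and 104, 96.6 and 112 CPM in siDDX5 libraries, a log2 fold change of 0.28 (adjusted p 0.422, 0.143 with the block). In TPM the groups overlapped, at 31.6, 38.3 and 41.4 against 38.2, 30.5 and 36.3, and the log2 fold change from log2(TPM + 1) was -0.08. The direction for E2F7 therefore turned with the unit. A short transcript of 724 bases, ENST00000551058.1, made up 2.64%, 2.78% and 3.16% of the E2F7 counts in control and 0.643%, 0.729% and 0.341% in siDDX5 libraries.

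E2F2 (ENSG00000007968.6, chromosome 1, 23506430 to 23531220, minus strand), an activating E2F, measured 60.8, 61.1 and 48.4 CPM in control and 47.1, 41.5 and 39.5 CPM in siDDX5 libraries. The groups did not overlap, and the log2 fold change was -0.41 (SE 0.13, adjusted p 0.272, 0.0537 with the block). E2F1 and E2F3, the other activators, had -0.07 and 0.06. CCNE2, the cyclin partner of CDK2 at S phase entry, measured 44.1, 59.0 and 47.7 CPM against 55.0, 52.6 and 54.4 CPM (log2 fold change 0.10).

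**Figure D4:**
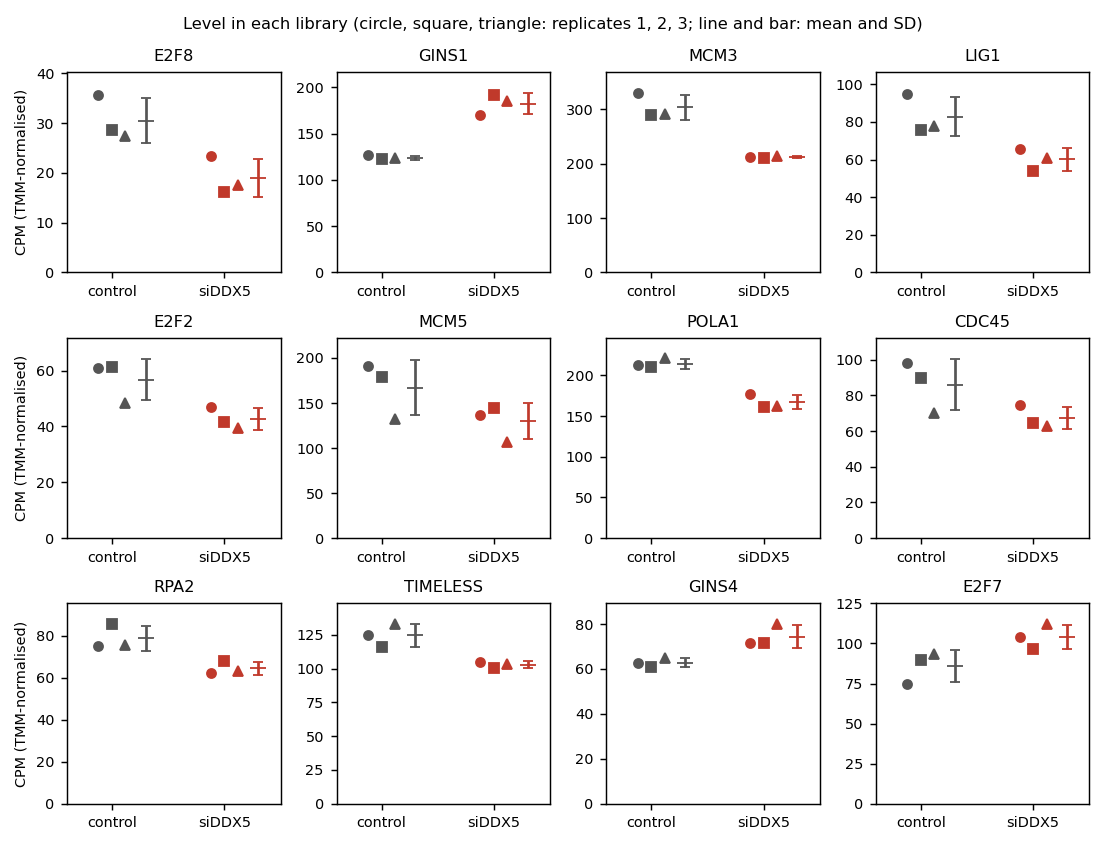
TMM-normalised CPM in each library for the 12 members with the smallest p once the replicate block was added, on axes that start at 0, with the mean and SD beside the points. The groups do not overlap for 10 of them, and the control replicate 3 points of MCM5 and CDC45 fall within the siDDX5 range.

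All 4 chromatin members lay below 0. DNMT1, which copies DNA methylation to the new strand, measured 354, 333 and 337 CPM in control and 298, 283 and 275 CPM in siDDX5 libraries, without overlap (log2 fold change -0.26, adjusted p 0.348, 0.143 with the block). UHRF1, which guides DNMT1 to hemimethylated DNA, measured 537, 410.4 and 441 CPM against 455, 385 and 385 CPM (-0.18). Over 95% of the UHRF1 counts lay on ENST00000650932.1, which was joined to the gene by its place in the tables. With primary-assembly transcripts alone the value for UHRF1 was -0.50 (edgeR adjusted p 0.37). CHAF1A and CHAF1B, subunits of the histone chaperone that packages new DNA, had -0.02 and -0.17.

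Among the genes that protect the fork, TIMELESS (ENSG00000111602.11, chromosome 12, 56416373 to 56449403, minus strand) was lowest. It measured 125, 116 and 133 CPM in control and 105, 100.4 and 104 CPM in siDDX5 libraries, without overlap, a log2 fold change of -0.28 (SE 0.10, adjusted p 0.338, 0.115 with the block). TIPIN, its binding partner, measured 33.5, 37.0 and 31.9 CPM against 33.8, 36.9 and 30.7 CPM (-0.01). CLSPN, the adaptor that passes the ATR signal to CHEK1, and WDHD1, which ties the helicase to polymerase alpha, both had -0.09.

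Transcript usage was compared in 54 members with at least 2 transcripts tested. No member passed a Simes adjusted p of 0.05 with edgeR's diffSpliceDGE without or with the block, where 1.59% and 1.20% of 10707 genes did. At an unadjusted p under 0.05 there were 4 members, E2F7, MCM3, RRM1 and MCM2 (7.41%, against 5.37% of all genes), and 2 with the block (3.70%, against 6.23%). E2F7 had the smallest value (p 0.0038, adjusted 0.174), from the 724-base transcript described above. The main protein-coding transcripts of GINS1, MCM3 and E2F8 held most of the counts in each library. ENST00000262460.5 made up 97.4% to 99.1% of the GINS1 counts in the 6 libraries, and ENST00000596288.6 made up 89.5% to 91.6% of the MCM3 counts. ENST00000250024.9 made up 78.2% to 84.7% of the E2F8 counts. LIG1 was spread more widely, with 46.8% to 61.7% on ENST00000263274.12. Over all members, 84.5% ± 0.775 of the counts in control and 85.4% ± 0.917 in siDDX5 libraries lay on transcripts annotated as protein-coding (SD, n = 3 each). Transcripts without an annotation here, among them the main UHRF1 transcript, count in the total but not as protein-coding.

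A further 48 genes of replication and S phase control, not among the 59, divided almost evenly. Of these, 23 lay below 0 and 25 above, with a median log2 fold change of 0.01. None passed without the block, where 0.164% of all genes tested did. With the block 1 gene passed (2.08%, against 2.59% of all genes tested). This was CDC25A, the phosphatase that activates CDK2, which measured 57.2, 69.3 and 49.2 CPM in control and 84.3, 89.0 and 79.5 CPM in siDDX5 libraries (log2 fold change 0.53, adjusted p 0.183, 0.02 with the block). Of 16 genes of G2 and mitosis, 7 lay below 0 and 9 above, with a median of 0.03, and none passed in either fit. MKI67 had the largest change of the 16, with a log2 fold change of -0.39 (edgeR adjusted p 0.406, 0.099 with the block). Its means were 887 ± 45.2 CPM in control and 679 ± 161 CPM in siDDX5 libraries (SD), with overlapping groups. Whether these lists differ from the 59 members was not tested.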

How the data were processed

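Reads were processed by the authors with bcl2fastq 2.20, FastQC 0.11.8, cutadapt 1.11 and kallisto 0.46.0 for GRCh38, per the submitters' processing notes. The annotation release is not given in the sources used here. Each deposited table holds estimated counts per transcript, not normalised, and TPM values scaled by the authors' quantifier for effective length. Per the labels' protocols the libraries were stranded mRNA libraries. Whether the counting used strand is not given in the sources used here, so reads of overlapping genes on opposite strands may not have been told apart.

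Transcripts were joined to GENCODE release 29 genes by identifier (169797 of 188753), by symbol for haplotype copies (15521) or by place between transcripts of a single gene (890). A further 2545 were left out. Estimated counts were summed per gene, rounded, filtered with filterByExpr and TMM-scaled. The test was the quasi-likelihood test of edgeR 4.0.16 under R 4.3.3 (glmQLFit, then glmQLFTest), in which group was the single factor. P-values were adjusted by Benjamini-Hochberg over all genes tested. A standard error is the log2 fold change divided by the square root of F. Pair differences used a prior count of 0.5. A count of 3 corresponded to 0.117 to 0.165 CPM. SDs and standard errors do not cover the division of reads among transcripts.

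Groups and replicate numbers come from the titles. The series' design text calls the replicates biological and says no more of separate cultures, so p-values measure the spread between these libraries. RFC4 overlaps EIF4A2, and TYMS overlaps ENOSF1, on the opposite strand. Over 15227 genes, deviations from group means correlated at 0.19, 0.25 and 0.54 within pairs 1, 2 and 3 (genes are not independent). The block is therefore reported beside the other fit. Over the members the values were 0.07, 0.21 and 0.70. Among unmatched libraries, control replicate 1 with siDDX5 replicate 2 gave 0.08 over all genes and 0.17 over the members. Control replicate 2 with siDDX5 replicate 1 gave 0.02 and 0.13, and the other unmatched values were negative. Over the members, pair 1 was thus not above these unmatched values.

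Members and lists were chosen with earlier results of these data known. Values in every library are given for members called in either fit, filled to 12 by p with the block, for the most abundant member of each role per length, and for others chosen after their values were seen. Alternatives were DESeq2 1.42.0 size factors and Wald test, other filters, length-scaled TPM counts, limma-trend (limma 3.58.1) on log2(TPM + 1) and log2(TPM + 0.1), the block, GC offsets, primary-assembly transcripts, and leaving out libraries. In simulated counts, 200 genes were given a log2 change of 1. Without the block, edgeR found 78% of those 200 among 15093 genes with 5 false calls, and with replicate effects 80.5% without and 90.5% with the block among 15065 genes, with 1 and 10 false calls. The largest change among the members was -0.68, so these rates do not give the power for the members. The simulated replicate effects had the same spread in every pair, unlike the unequal correlations of the real pairs.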

Additional observations from a re-analysis of the deposited data

How the results depend on the processing

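Without the block, 0 members passed the adjusted threshold, against 0.164% of all genes. An unadjusted p under 0.05 was found for 15 of 59 members, against 11.4% of all genes. The replicate block gave 4 calls and DESeq2 (Wald) gave 4 (6.78% each, against 2.59% and 2.12% of all genes). Dropping the filter gave 1 (GINS1, 1.69% of members, against 0.552% of all genes), and the block and GC correction together gave 5 (8.47%, against 3.55%). An alternative added after the data had been examined kept the block and left out both libraries of a number. It gave 6 calls without replicate 1 (10.2%, against 6.12% of all genes), 9 without replicate 2 (15.3%, against 8.0%) and 1 without replicate 3 (1.69%, against 1.38%). Each fit that left out a single library gave 0 calls, where 0% to 0.0972% of all genes passed. With so few genes passing, 0 calls says little about the members. The other settings also gave 0 calls, where 0.00672% to 0.230% of all genes passed. The members' median of -0.10 was -0.17 by limma-trend with a pseudocount of 1 and -0.17 with one of 0.1, where that of all genes was -0.05. It ranged from -0.11 to -0.06 when a single library was left out. Between 34 and 48 members lay below 0 over all settings. Members with changed transcript usage numbered 0, against 1 when the filter was dropped (1.72%, against 2.57% of all genes). They numbered 0 to 3 when a single library was left out, with 3 without siDDX5 replicate 1 (5.45%, against 4.11%). DDX5 itself passed in 14 of 20 alternatives and had an adjusted p of up to 0.0954 in the others.

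MCM3, GINS1, LIG1, E2F8, E2F2, MCM5, POLA1, CDC45, RPA2, TIMELESS and GINS4 kept their direction under all 20 alternatives. They were chosen by p from these same libraries, so this is no separate evidence. Other members nearer 0 also kept 1 sign over all settings, among them RFC1 (-0.142 to -0.013) and ORC6 (0.019 to 0.156). E2F7 had -0.037 with length-scaled TPM counts, and -0.080 and -0.082 by limma-trend with pseudocounts of 1 and 0.1. CCNE2 had -0.048, -0.088 and -0.089 under the same settings. TYMS had 0.031 with length-scaled TPM counts, and FEN1 had -0.00635 and -0.0064 by limma-trend. MCM7 had 0.0039 with the block and GC correction. With the block and without both replicate 1 libraries, CDC6 had 0.0083, MCM7 0.068, POLD2 0.10 and TYMS 0.11. With the block, FEN1 had -0.054 without both replicate 2 libraries, and without both replicate 3 libraries FEN1 had -0.0034 and TIPIN 0.0073. When a single library was left out, CDC6 ranged from -0.128 to 0.015, MCM7 from -0.094 to 0.083, POLD2 from -0.17 to 0.042, FEN1 from -0.019 to 0.081, TYMS from -0.10 to 0.070 and TIPIN from -0.083 to 0.060. None of these reversed values passed an adjusted p of 0.05, and the cause was not tested. Other members also took both signs over the settings, among them RRM2 (-0.14 to 0.18) and MCM4 (-0.33 to 0.03).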
